A study of Mus musculus with 6 samples.

Results

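The SR and hnRNP splicing factor genes were followed in cultured mouse osteoblasts, the bone-forming cells, with and without the kinase gene Mark3. The set was taken by gene symbol: protein-coding genes of GENCODE M21 named Srsf with a number or beginning with Hnrnp, together with Tra2a, Tra2b, Srrm1 and Srrm2. Of the 51912 gene IDs in the count table, 35 matched, and 34 of these had a mean of at least 1 CPM (counts scaled to library size). They comprised 14 SR and SR-related genes and 20 hnRNP genes. The lowest gene inside that bound was Srsf4, with a mean of 24.5 CPM, and the single gene outside it was Srsf12, with 0.831 CPM. All 34 had counts in every library and passed the filter on low counts.

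The cells were primary osteoblasts from the calvaria (skull caps) of C57BL/6J pups aged 1 d that carried Mark3 flox/flox alleles, in which Cre recombinase removes the flanked part of the gene. The Mark3-KO group (labelled Mark3-/-) received CRE adenovirus for 24 h and the WT group (labelled wild-type) received GFP adenovirus for 24 h, with 3 libraries each. Both groups thus carried the floxed alleles, and neither was free of virus. The loss of Mark3 and the expression of Cre in place of GFP cannot be told apart. Whether the 3 libraries of each group were grown from different pups or dishes is not stated, so every p-value here rests on a spread between libraries that may be technical.

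SR proteins hold RNA recognition motifs and a domain rich in arginine and serine repeats. They bind exonic enhancers and recruit the spliceosome to nearby splice sites, and kinases that phosphorylate that domain control where they are and what they bind. hnRNP proteins coat nascent transcripts, and many of them oppose SR proteins by silencing splice sites. Several members of both families adjust their own amount by splicing in an exon that sends the transcript to nonsense-mediated decay. In bone-forming cells, as elsewhere, alternative splicing sets the isoforms of matrix proteins such as fibronectin.

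Libraries held between 56925883 and 71445243 counts. Mark3 (chr12:111574523-111656221, GRCm38) had 47.6, 52.4 and 44.1 CPM in Mark3-KO libraries and 112.8, 117.6 and 117.6 CPM in WT libraries, a fold change of -1.27 on the log2 scale (SE 0.10, adjusted p = 0.0153, edgeR), so the labels held but the transcript remained. Osteoblast markers were detected, 10 of 10, at a summed 14109.3 to 15739.0 CPM in Mark3-KO and 19597.0 to 39718.8 CPM in WT. Bglap, a gene of the mature marker osteocalcin, stayed under 1 CPM in all 6 libraries. Bglap2, also in the list, had 0.624, 0.369 and 0.26 CPM in Mark3-KO and 1.25, 1.63 and 1.03 CPM in WT. Col1a1 and Col1a2 made most of the summed level in every library. At an unadjusted p under 0.05 (edgeR), 5 of the 10 markers were lower and 1, Spp1 (log2 fold change 0.34), higher in Mark3-KO. Of all tested genes, 24.8% were lower and 20.8% higher by that measure. Transcript GC content separated the libraries. Relative to each gene's mean, the median log2 level of the 10% of genes richest in GC was -0.21, -0.71 and -1 in Mark3-KO replicates 1, 2 and 3, and 1.15, 0.72 and 0.11 in WT replicates 1, 2 and 3. The 10% of genes poorest in GC ran the other way, from 0.08 to 0.54 in Mark3-KO and from -0.50 to -0.08 in WT. The share of counts from mitochondrial genes ran along the same axis, at 2.07, 2.38 and 3.22% in Mark3-KO replicates 1, 2 and 3 and 1.05, 1.42 and 1.66% in WT replicates 1, 2 and 3. It did not overlap between the groups, and its part in the members' values was not tested. Mark3-KO replicate 1 and WT replicate 3 were the nearest pair of libraries although they come from opposite groups. Chondrocyte markers (4 of 4 detected) summed to 350.6 to 582.6 CPM in Mark3-KO and 667.9 to 1731.3 CPM in WT, and skeletal muscle markers to 0.732 to 1.72 CPM in Mark3-KO and 3.09 to 7.53 CPM in WT, with Myod1 at 0 in Mark3-KO replicates 1 and 2. Macrophage and osteoclast markers (6 genes) summed to 209.4 to 221.2 CPM in Mark3-KO and 201.8 to 229.4 CPM in WT, of which Ctsk made 180.3 to 188.7 CPM in Mark3-KO and 168.1 to 199.6 CPM in WT. Within that list Ptprc (log2 fold change 0.67) and Adgre1 (0.53) were higher in every Mark3-KO library than in any WT library. Csf1r (-0.51) and Cd68 (-0.37) were lower in the same way. Of all tested genes, 25.8% were higher and 27.5% lower without overlap. Endothelial markers (4 genes) stayed at or under 4.49 CPM and epithelial markers (4 genes, Krt14 at 0) at or under 0.407 CPM in every library. The part of these cell types in the values below was not tested.

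No SR or hnRNP gene passed the threshold of edgeR's quasi-likelihood test, an adjusted p of 0.05 over 19017 tested genes. The share of all tested genes called there was 0.216%, with 0.0473% higher and 0.168% lower in Mark3-KO. At an unadjusted p under 0.05, 17 members were higher and 5 lower in Mark3-KO, where 20.8% and 24.8% of all tested genes were higher and lower. At an adjusted p under 0.1, 16 members were higher and 4 lower, where 19.7% and 24.0% of all tested genes were. The DESeq2 Wald test called 9 members higher and 3 lower, against 15.5% and 23.1% of the genes it tested, and limma-voom called 0, against 0.142%. The smallest adjusted p among members was 0.0506, and 6 members lay below 0.055, as did 4707 of the tested genes. The edgeR count turned on single libraries: without Mark3-KO replicate 1 it was 10 higher and 1 lower, where 12.1% and 20% of all tested genes were, and without WT replicate 3 it was 9 higher and 3 lower, where 12.9% and 20% were. In these settings calls were common among all tested genes.

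By sign, 26 members were higher and 8 lower in Mark3-KO, against 51.1% and 48.9% of all tested genes, and the signs of all members were the same when libraries were scaled by size alone, which moved the median of all genes from 0.02 to 0.13. The median log2 fold change was 0.25 over the members and 0.02 over all tested genes. The hnRNP genes had a median of 0.31, with 17 higher and 3 lower, and the SR and SR-related genes a median of 0.18, with 9 higher and 5 lower. With a correction for the GC content of transcripts the median of the members was -0.07, with 14 higher and 20 lower (51.6% and 48.4% of all tested genes), so these counts of direction depend on that correction. The 3 Mark3-KO libraries lay above the 3 WT libraries for 19 members (25.8% of all tested genes did so), and below them for 5 members (27.5% of all tested genes). Summed over the hnRNP genes, levels were 5854, 6150 and 6747 CPM in Mark3-KO and 4871, 5158 and 5531 CPM in WT, so the groups did not overlap. Summed over the SR and SR-related genes they were 2441, 2449 and 2528 CPM in Mark3-KO and 2292, 2307 and 2388 CPM in WT, again without overlap. Both sums are without GC correction, and sums with it were not computed. With that correction the median log2 fold change was -0.01 over the hnRNP genes and -0.23 over the SR and SR-related genes. In bulk libraries, fewer cells of a type and less RNA per cell cannot be told apart.

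**Figure D1:**
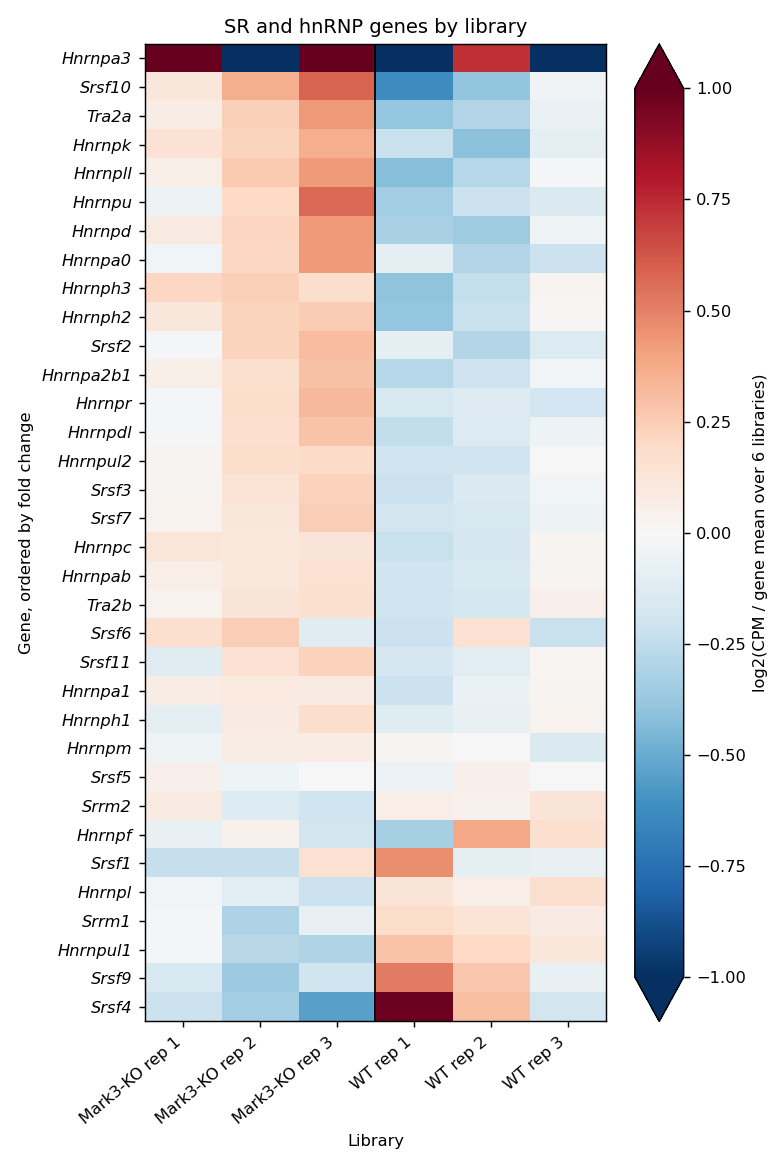
Level of each of the 34 SR and hnRNP genes in each library, as log2 of its CPM over its mean of the 6 libraries, with genes ordered by log2 fold change (Mark3-KO over WT) and colours ending at -1 and 1. Most rows are red in Mark3-KO and blue in WT, with steps between the libraries of a group, Hnrnpa3 switches within both groups, and the lowest rows (Srsf4, Srsf9, Hnrnpul1) run the other way.

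Per kilobase of annotated exon, hnRNP genes took the top of the order of levels. Hnrnpa1, a shuttling silencer of splice sites, stood highest with 210.3 ± 2.01 CPM per kb in Mark3-KO and 187.4 ± 15.8 in WT (SD, n = 3 each). Below it came Hnrnpa2b1 with 129.3 ± 10.7 CPM per kb in Mark3-KO and 101.9 ± 9.56 in WT, and Hnrnpab with 128.4 ± 3.77 in Mark3-KO and 110.5 ± 9.43 in WT. These neighbours did not differ beyond their spread. The most abundant SR gene was Srsf5, with 60.4 ± 1.85 CPM per kb in Mark3-KO and 60.1 ± 2.32 in WT, close to Hnrnph1 and Hnrnpc. At the low end were Srsf4, with 5.08 ± 0.567 CPM per kb in Mark3-KO and 8.91 ± 3.66 in WT, and Hnrnpr, with 6.19 ± 0.724 in Mark3-KO and 4.94 ± 0.104 in WT. The kilobases count every annotated exon of a gene, so genes with many long alternative ends, such as Hnrnpr, are placed low by this measure.

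**Figure D2:**
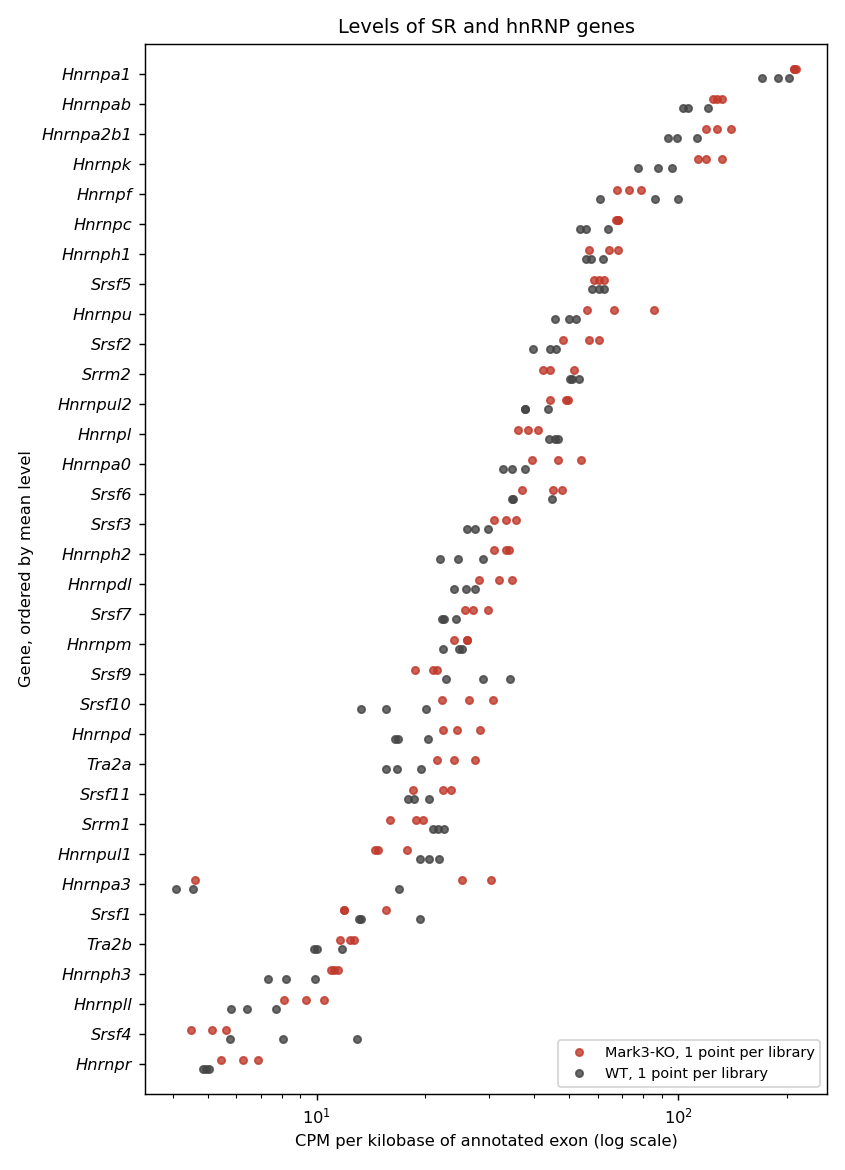
CPM per kilobase of annotated exon (log scale) for the 34 genes, ordered by mean level, with 1 red point per Mark3-KO library and 1 grey point per WT library. Levels run from 198.9 (Hnrnpa1) to 5.57 (Hnrnpr) as means of the 6 libraries, and the points of a gene mostly lie closer together than genes at different ends of the order.

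Among the classical SR proteins, the activators of exon inclusion, fold changes went both ways and were small for the abundant members. Srsf2 (chr11:116849901-116853094, minus strand), which stays in nuclear speckles, had 142.4, 167.6 and 178.6 CPM in Mark3-KO and 135.6, 117.3 and 131.1 CPM in WT. Every Mark3-KO library was above every WT library, with a fold change of 0.35 on the log2 scale (SE 0.12, adjusted p = 0.0674). Srsf3, the smallest SR protein and a factor in mRNA export, and Srsf7, its closest relative, each had a log2 fold change of 0.26, with adjusted p of 0.088 for Srsf3 and 0.0835 for Srsf7. Srsf3 averaged 262.7 ± 18.6 CPM in Mark3-KO and 219.4 ± 14.9 CPM in WT (SD, n = 3 each), and Srsf7 averaged 97.7 ± 7.30 CPM in Mark3-KO and 81.7 ± 4.11 CPM in WT. Srsf5 averaged 240.8 ± 7.37 CPM in Mark3-KO and 239.7 ± 9.23 CPM in WT, a fold change of 0.01 on the log2 scale (SE 0.08). Srsf6, known for its role in wound healing and skin, had 217.2, 230.2 and 178.4 CPM in Mark3-KO and 167.6, 215.5 and 166.8 CPM in WT, so its groups overlapped (log2 fold change 0.19, adjusted p = 0.358).

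Srsf1, the founding SR protein and an activator of weak splice sites, had 68.0, 67.9 and 88.7 CPM in Mark3-KO and 110.2, 75 and 75.8 CPM in WT. WT replicate 1 was its highest library and the groups overlapped, and the log2 fold change of -0.22 (SE 0.19) was -0.02 without that library and -0.36 without Mark3-KO replicate 3. Srsf9 (chr5:115327177-115333080), a short SR protein related to Srsf1, had 35.6, 30.9 and 34.6 CPM in Mark3-KO and 56.7, 47.8 and 37.7 CPM in WT. Its groups did not overlap, and its log2 fold change was -0.49 (SE 0.17, adjusted p = 0.0679). Srsf4 (chr4:131873617-131901706), a long SR protein, had 20, 18.3 and 16.0 CPM in Mark3-KO and 46.0, 28.7 and 20.5 CPM in WT. This was the lowest log2 fold change of the set, -0.81 (SE 0.29, adjusted p = 0.0780), and WT replicate 1 carried much of it: without that library it was -0.45. Srsf4 also shares 43.0% of its exon bases with Gm12992 on the opposite strand, which averaged 5.35 ± 2.30 CPM in Mark3-KO and 9.72 ± 0.465 CPM in WT (SD, n = 3 each). The kit does not mark strand, so reads of that stretch cannot be assigned to either gene by strand. The gene outside the bound, Srsf12, had 0.692, 0.336 and 0.521 CPM in Mark3-KO and 2.33, 0.835 and 0.432 CPM in WT, with overlapping groups.

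The SR-like proteins held the highest fold change of the SR side. Srsf10 (ENSMUSG00000028676, chr4:135855747-135869908, plus strand), which represses splicing when dephosphorylated, as after heat shock, and activates exons otherwise, had 155.5, 185.4 and 215.8 CPM in Mark3-KO and 93.0, 109.2 and 140.4 CPM in WT. The groups did not overlap, although Mark3-KO replicate 1 and WT replicate 3 were close. Its log2 fold change was 0.70 (SE 0.19, adjusted p = 0.0507), 1.63-fold, and 0.0107 was its adjusted p in DESeq2. Tra2a (chr6:49243924-49264033), a relative of the fly sex determination factor Transformer-2 that binds GA-rich exonic enhancers, had 149.4, 167.0 and 190.5 CPM in Mark3-KO and 108.3, 115.8 and 135.4 CPM in WT. It did not overlap between groups either, with a fold change of 0.50 on the log2 scale (SE 0.13, adjusted p = 0.0506). Tra2b, its paralogue, averaged 112.6 ± 5.17 CPM in Mark3-KO and 97.3 ± 9.69 CPM in WT (SD, n = 3 each), with overlapping groups and a fold change of 0.21 on the log2 scale (adjusted p = 0.156). Srsf11 averaged 181.3 ± 22.4 CPM in Mark3-KO and 160.3 ± 11.1 CPM in WT, also overlapping (log2 fold change 0.18, adjusted p = 0.283).

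Srrm1 and Srrm2 encode large coactivators with many serine and arginine repeats but no RNA recognition motif, and SRRM2 is a scaffold of nuclear speckles. Srrm2 (chr17:23790532-23824741) had 663.6, 569.3 and 544.8 CPM in Mark3-KO and 653.8, 644.0 and 684.6 CPM in WT. Mark3-KO replicate 1 lay among the WT libraries, and the log2 fold change was -0.16 (SE 0.10, adjusted p = 0.276), or -0.25 without that library. Srrm1 (chr4:135320484-135353321) had 143.3, 116.6 and 137.3 CPM in Mark3-KO and 163.8, 158.5 and 152.7 CPM in WT. Its groups did not overlap, with a fold change of -0.26 on the log2 scale (SE 0.11, adjusted p = 0.104).

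Of the A and B type hnRNPs, which bind UAG-containing motifs and silence exons, Hnrnpa2b1, Hnrnpa0 and Hnrnpa1 had every Mark3-KO library above every WT library. Hnrnpa2b1 (chr6:51460932-51469894), also a reader in microRNA processing and RNA transport, had 784.5, 844.7 and 925.5 CPM in Mark3-KO and 618.0, 654.5 and 740.6 CPM in WT (log2 fold change 0.34, SE 0.11, adjusted p = 0.0631). Hnrnpa1 (chr15:103240432-103246692) had 658.1, 670.3 and 661.1 CPM in Mark3-KO and 538.4, 597.0 and 637.5 CPM in WT, a gap that was small beside the spread of the WT libraries (log2 fold change 0.17, SE 0.10, adjusted p = 0.213). Hnrnpa0 (ENSMUSG00000007836, chr13:58125879-58128556, minus strand), a gene with 1 annotated transcript whose product binds AU-rich elements of inflammatory mRNAs, had 105.7, 124.7 and 144.6 CPM in Mark3-KO and 101.0, 87.9 and 92.8 CPM in WT. Mark3-KO replicate 1 was only a little above the WT libraries, and the log2 fold change was 0.41 (SE 0.13, adjusted p = 0.0628). Hnrnpab (chr11:51600100-51606847), an A/B type protein with links to transcriptional control, had 347.3, 355.8 and 368.2 CPM in Mark3-KO and 287.9, 297.3 and 337.3 CPM in WT, without overlap (log2 fold change 0.22, SE 0.10, adjusted p = 0.125).

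Hnrnpa3 (ENSMUSG00000059005, chr2:75659261-75669407, plus strand), a close relative of Hnrnpa2b1, had the highest fold change of the set and the widest spread. It had 136.3, 24.8 and 164.3 CPM in Mark3-KO and 22.0, 91.1 and 24.6 CPM in WT. Within each group it switched between a low and a high level: Mark3-KO replicates 1 and 3 and WT replicate 2 were high, and the other 3 libraries were low. The log2 fold change of 1.24 (SE 0.81, adjusted p = 0.266) was therefore well within the spread between libraries, and it ran from 0.80 to 2.21 when single libraries were left out.

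The transcriptome holds many near-identical copies of Hnrnpa3, and counts could be divided between them. With a bound of 95% identity over at least 300 bases, 13 of the 34 members had a copy elsewhere in the genome, and 58 such copies were in the count table, 29 of them of Hnrnpa3. The run below is the longest part of the Hnrnpa3 coding sequence, 221 of 1140 bases (coding bases 71 to 291), that also occurs letter for letter in all 4 of its copies compared here, Gm6793 (chr8:112013433-112015036, annotated as protein coding), Gm12960 (chr4:111807358-111808423), Gm11847 (chr4:12232833-12233951) and Gm8991 (chr5:16729996-16731070). It shows how long a stretch gives reads that fit all 5 genes.
Hnrnpa3 and 4 copies: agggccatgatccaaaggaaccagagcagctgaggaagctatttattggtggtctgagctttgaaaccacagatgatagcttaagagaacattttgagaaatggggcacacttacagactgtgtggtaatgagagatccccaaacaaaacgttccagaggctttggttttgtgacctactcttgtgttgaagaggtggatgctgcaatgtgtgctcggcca
In coding bases 323 to 394, printed for each gene to show where reads can be told apart, capitals mark letters that differ from Hnrnpa3. Sequences are those of GENCODE M21 transcripts (GRCm38).
Hnrnpa3: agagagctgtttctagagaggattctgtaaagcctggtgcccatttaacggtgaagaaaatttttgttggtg
Gm6793: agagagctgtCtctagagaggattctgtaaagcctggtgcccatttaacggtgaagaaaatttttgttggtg
Gm12960: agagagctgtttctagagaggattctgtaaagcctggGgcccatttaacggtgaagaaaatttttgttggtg
Gm11847: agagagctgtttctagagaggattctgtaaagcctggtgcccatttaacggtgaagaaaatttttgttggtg
Gm8991: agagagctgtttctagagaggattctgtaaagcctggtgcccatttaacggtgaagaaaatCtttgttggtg
Gm6793, Gm12960 and Gm8991 each differed from Hnrnpa3 by 1 of these 72 bases, and Gm11847 by 0. Over their alignments with the coding sequence the copies were 97.8% (Gm6793), 99.2% (Gm12960), 98.1% (Gm11847) and 97.4% (Gm8991) identical to it.

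The 29 copies of Hnrnpa3 together held more counts than the gene itself in every library. They summed to 262.7, 254.1 and 268.7 CPM in Mark3-KO and 176.6, 183.0 and 226.5 CPM in WT, levels that did not switch as Hnrnpa3 did. Gm6793 had 125.0, 131.7 and 126.3 CPM in Mark3-KO and 71.6, 80.6 and 99.1 CPM in WT, a fold change of 0.61 on the log2 scale (adjusted p = 0.0506). Gm12960 had 64.3, 68.5 and 66.5 CPM in Mark3-KO and 38.7, 44 and 53.7 CPM in WT, a fold change of 0.55 on the log2 scale (adjusted p = 0.0506). Both copies had every Mark3-KO library above every WT library. Other copies varied within groups: Gm11847 had 4.57, 23.3 and 41.0 CPM in Mark3-KO and 35.5, 28.2 and 42.2 CPM in WT. Gm5641, which matches Hnrnpa3 at 100% over 1488 bases, had 44.5, 2.87 and 9.47 CPM in Mark3-KO and 4.51, 10.2 and 9.66 CPM in WT. Summed with its copies, Hnrnpa3 reached 398.9, 278.9 and 433.0 CPM in Mark3-KO and 198.6, 274.1 and 251.1 CPM in WT. The groups then did not overlap, with a fold change of 0.62 on the log2 scale (SE 0.20, adjusted p = 0.0611), and Mark3-KO replicate 2 was almost level with WT replicate 2. How the authors' counting placed reads that match several positions is not given in the sources used here, so the level of Hnrnpa3 itself is uncertain.

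**Figure D3:**
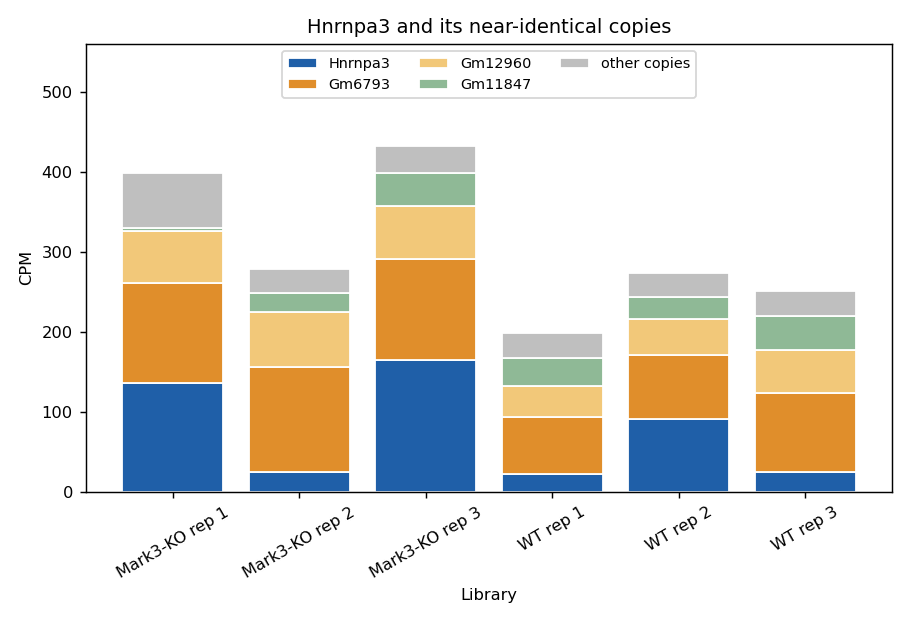
Stacked CPM of Hnrnpa3 (blue), its copies Gm6793, Gm12960 and Gm11847, and its other copies, in each of the 3 Mark3-KO and 3 WT libraries. The blue part is large in Mark3-KO replicates 1 and 3 and WT replicate 2, while the Gm6793 and Gm12960 parts vary less within each group.

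Hnrnpc, whose product binds U tracts and keeps cryptic exons out, averaged 293.5 ± 2.46 CPM in Mark3-KO and 249.4 ± 23.6 CPM in WT (SD, n = 3 each), without overlap (log2 fold change 0.23, adjusted p = 0.107). Hnrnpd (chr5:99955935-99978938), which encodes AUF1, a binder of AU-rich elements that promotes mRNA decay, had 164.7, 179.4 and 207.6 CPM in Mark3-KO and 123.4, 121.1 and 149.8 CPM in WT. It did not overlap between groups, with a fold change of 0.48 on the log2 scale (SE 0.13, adjusted p = 0.0511). Its paralogue Hnrnpdl averaged 152.1 ± 15.6 CPM in Mark3-KO and 124.2 ± 8.57 CPM in WT, a fold change of 0.29 on the log2 scale (adjusted p = 0.0867). Hnrnpk (chr13:58391142-58403343), a KH-domain protein that binds C-rich sequences and also acts in transcription, had 735.7, 774.1 and 856.8 CPM in Mark3-KO and 570.1, 499.8 and 620.9 CPM in WT. Its groups were well apart, with a fold change of 0.49 on the log2 scale (SE 0.12, adjusted p = 0.0506). Its copy Gm7964 had 80.6, 91.1 and 88.2 CPM in Mark3-KO and 61.5, 62.8 and 74.0 CPM in WT, and with the copy added the log2 fold change was 0.48.

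The F and H proteins bind G tracts and can activate or silence exons. Hnrnph1 averaged 368.8 ± 34.2 CPM in Mark3-KO and 341.2 ± 19.6 CPM in WT (SD, n = 3 each), with overlap (log2 fold change 0.11, adjusted p = 0.426). Hnrnph2, on the X chromosome, averaged 143.5 ± 7.15 CPM in Mark3-KO and 109.8 ± 15.2 CPM in WT (log2 fold change 0.39, adjusted p = 0.0589), and Hnrnph3 averaged 35.2 ± 0.692 CPM in Mark3-KO and 26.7 ± 4.06 CPM in WT (log2 fold change 0.40, adjusted p = 0.0683). Neither of these overlapped between groups. Hnrnpf (chr6:117900324-117925622) had 222.6, 241.3 and 206.3 CPM in Mark3-KO and 185.6, 304.8 and 262.9 CPM in WT, with wide overlap and a fold change of -0.17 on the log2 scale (SE 0.19, adjusted p = 0.5) that was -0.35 without WT replicate 1 and -0.01 without WT replicate 2. Its copy Gm12435 (99.5% identical over 1017 bases) had 63.9, 0.957 and 18.1 CPM in Mark3-KO and 75.2, 56.4 and 6.89 CPM in WT, a switch within both groups like that of Hnrnpa3. With its 6 copies added, Hnrnpf had 288.6, 244.6 and 241.6 CPM in Mark3-KO and 263.3, 363.8 and 272.4 CPM in WT, still overlapping (log2 fold change -0.21).

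Hnrnpl and Hnrnpll encode paralogues that bind CA repeats, and HNRNPLL is known for the switch of CD45 isoforms in activated lymphocytes. Hnrnpll (chr17:80029487-80062334) had 95, 109.4 and 122.4 CPM in Mark3-KO and 67.8, 74.8 and 89.9 CPM in WT (log2 fold change 0.49, SE 0.15, adjusted p = 0.0544). Hnrnpl (chr7:28808541-28822266) had 244.3, 229.5 and 214.9 CPM in Mark3-KO and 271.7, 260.8 and 277.6 CPM in WT (log2 fold change -0.23, SE 0.09, adjusted p = 0.0878). Neither overlapped between groups, and the paralogues lay on opposite sides of 0 without GC correction. With it their log2 fold changes were 0.07 (Hnrnpll) and 0.03 (Hnrnpl), and the groups overlapped for both. Their transcripts hold 43.7% GC (Hnrnpll) and 52.0% GC (Hnrnpl). Hnrnpm, a binder of GU-rich sequence, averaged 201.9 ± 9.74 CPM in Mark3-KO and 191.9 ± 12.2 CPM in WT (SD, n = 3 each, log2 fold change 0.07). Hnrnpr averaged 137.4 ± 16.1 CPM in Mark3-KO and 109.7 ± 2.31 CPM in WT (log2 fold change 0.33, adjusted p = 0.0654).

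The U family holds large nuclear matrix proteins. Hnrnpu (chr1:178321108-178337797), whose product SAF-A ties RNA such as Xist to chromatin, had 648.0, 771.0 and 992.2 CPM in Mark3-KO and 528.5, 578.4 and 606.7 CPM in WT. The groups did not overlap and Mark3-KO replicate 3 stood above the rest, with a fold change of 0.49 on the log2 scale (SE 0.17, adjusted p = 0.0672) that was 0.31 without that library. Hnrnpul2 averaged 338.6 ± 20.4 CPM in Mark3-KO and 282.4 ± 23.8 CPM in WT (SD, n = 3 each, log2 fold change 0.26, adjusted p = 0.0909). Hnrnpul1 (chr7:25721165-25754757), a partner in DNA repair and transcription, went the other way, with 153.5, 127.9 and 125.5 CPM in Mark3-KO and 188.7, 177.3 and 167.1 CPM in WT. It did not overlap between groups (log2 fold change -0.39, SE 0.11, adjusted p = 0.0526) and was the lowest hnRNP gene by fold change.

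Ratios between paralogues cancel what both members share in a library. Over 7 pairs, the smallest p that an exact two-sided permutation test of 3 against 3 libraries can give is 0.10. Hnrnpll over Hnrnpl had log2 ratios of -1.36, -1.07 and -0.81 in Mark3-KO and -2, -1.80 and -1.63 in WT, a difference of 0.73 (exact permutation p = 0.10, 0.14 adjusted over the pairs), between genes 8.3 percentage points apart in transcript GC content. Tra2a over Tra2b had 0.48, 0.55 and 0.70 in Mark3-KO and 0.25, 0.33 and 0.32 in WT, a difference of 0.28. Hnrnph2 over Hnrnph1 had -1.29, -1.36 and -1.42 in Mark3-KO and -1.76, -1.65 and -1.53 in WT, a difference of 0.29. Hnrnpd over Hnrnpdl differed by 0.19, between genes 0.6 percentage points apart in GC content. Srsf4 over Srsf6 had -3.44, -3.65 and -3.48 in Mark3-KO and -1.86, -2.91 and -3.03 in WT, with WT replicate 1 far from the others (difference -0.93). In these 5 pairs the groups did not overlap, which gave the same smallest p of 0.10 for each. No share over other gene pairs was computed. A ratio does not cancel a dependence on GC content where the paralogues differ in it. In GC content Srsf4 lay 6.0 percentage points above Srsf6, Tra2a 2.9 above Tra2b and Hnrnph2 1.3 above Hnrnph1. Srsf3 over Srsf7 held steady across all 6 libraries, at 1.42, 1.45 and 1.41 in Mark3-KO and 1.39, 1.44 and 1.45 in WT (difference 0.00, exact permutation p = 0.9), and Srrm1 over Srrm2 overlapped (difference -0.10, exact permutation p = 0.4).

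The direction of the members went with the GC content of their transcripts. The members' transcripts held a median of 44.8% GC (41.0 to 55.4%), below the 49.3% of all tested genes. Across genes, log2 fold change and GC content had a Pearson r of -0.52 over the 34 members and -0.74 over 18965 tested genes. These are descriptions within 1 contrast, and the genes share the same 6 libraries. With bounds chosen after the values were seen, 15 of the 16 members under 44% GC were higher in Mark3-KO, at a median log2 fold change of 0.33, where 95.4% of all tested genes of that range were higher, at a median of 0.54. Between 44 and 48%, 7 of 8 members were higher (median 0.18), against 83.2% of all tested genes (median 0.28). At 48% and above, 4 of 10 members were higher (median -0.20), against 22.9% of all tested genes (median -0.41). These ranges are not matched: all tested genes reach down to 17.1% and up to 75.5% GC, beyond the members at both ends. By deciles of GC content, 15 members lay within the middle 50% of the genes of their decile, 5 above it and 14 below it.

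**Figure D4:**
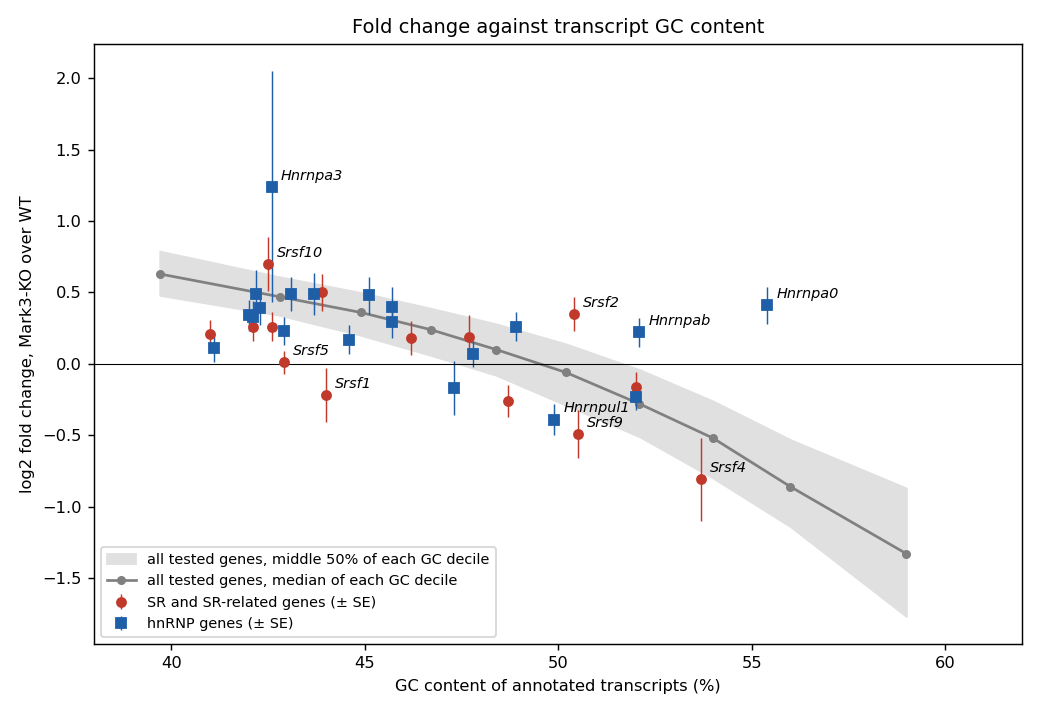
Log2 fold change (Mark3-KO over WT, ± SE) against the GC content of annotated transcripts (%) for the SR and SR-related genes (red circles) and hnRNP genes (blue squares), with the median (grey line) and middle 50% (grey band) of all tested genes in each decile of GC content. By decile, 15 members lie within the middle 50%, 5 lie above it (Hnrnpa0, Hnrnpa3, Hnrnpab, Srsf2, Srsf10) and 14 lie below it, the farthest being Srsf1, Hnrnph1 and Srsf5.

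Some members stood off the trend of genes of like GC content. Hnrnpa0, the richest in GC with 55.4%, had a log2 fold change of 0.41 where the median of all tested genes in its GC decile was -0.86. Hnrnpab (52.1% GC) had 0.22 where its decile had -0.28, and Srsf2 (50.4% GC) had 0.35 where its decile had -0.06. On the other side, Srsf5 (42.9% GC) had 0.01 where its decile had 0.47, Srsf1 (44% GC) had -0.22 where its decile had 0.36, and Hnrnph1 (41.1% GC) had 0.11 where its decile had 0.63.

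When the dependence of each library on GC content was removed with a spline, 0 members passed the edgeR threshold (0.405% of all tested genes did). At an unadjusted p under 0.05, 5 members were higher and 12 lower, against 11.5% and 13.6% of all tested genes. The sign of the log2 fold change differed from the uncorrected one for 16 members. Corrected fold change and GC content had a Pearson r of 0.38 over the 34 members and -0.02 over 18965 tested genes. Among the members a trend with GC content thus remained, opposite in sign to the uncorrected one. Its part in the corrected values of single members was not tested. A difference between groups that itself follows GC content is removed along with the rest by this correction, and with the groups at the ends of the GC axis these cannot be told apart. Hnrnpa0 had the largest corrected fold change, 1.22 (SE 0.26, adjusted p = 0.102), with corrected levels of 112.8, 170.0 and 222.9 CPM in Mark3-KO and 64.0, 65.7 and 87.2 CPM in WT. Srsf2 came to 0.45 with 140.6, 174.4 and 192.3 corrected CPM in Mark3-KO and 129.1, 112.9 and 129.2 in WT, and Hnrnpab to 0.49 with 347.7, 397.4 and 440.0 in Mark3-KO and 247.3, 267.2 and 327.0 in WT. For each of these the Mark3-KO libraries were above the WT libraries both before and after correction.

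Below 0 after correction were Hnrnph1 with -0.44 (adjusted p = 0.0803, the smallest among members), Srsf5 with -0.46 and Srsf1 with -0.65. Hnrnph1 had 313.0, 310.6 and 288.8 corrected CPM in Mark3-KO and 445.2, 409.5 and 384.7 in WT. Srsf5 had 234.8, 198.7 and 184.3 in Mark3-KO and 301.8, 294.0 and 251.5 in WT, and Srsf1 had 64.4, 58.9 and 70.9 in Mark3-KO and 139.8, 86.9 and 78.6 in WT. All 3 were lower in every Mark3-KO library on the corrected scale, while on the uncorrected scale their groups overlapped. The members that led the uncorrected order moved toward 0: Srsf10 to 0.22, Tra2a to 0.08, Hnrnpk to 0.03, Hnrnpll to 0.07, Hnrnpd to 0.15 and Hnrnpu to -0.02. Hnrnpul1 (-0.34), Srsf9 (-0.37), Srrm1 (-0.31) and Srsf4 (-0.27) stayed below 0. On the corrected scale the Mark3-KO libraries lay above the WT libraries for 5 members (14.5% of all tested genes) and below them for 11 (17.3% of all tested genes).

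**Figure D5:**
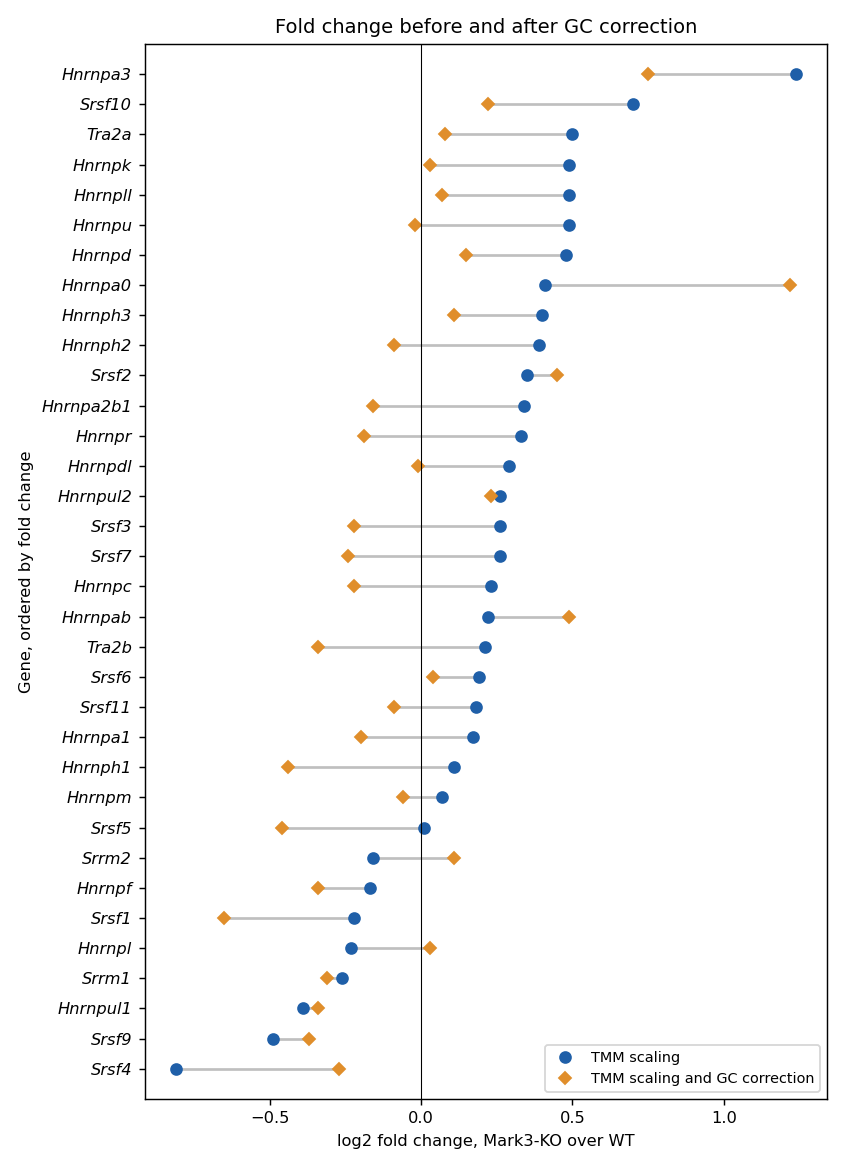
Log2 fold change (Mark3-KO over WT) of each of the 34 genes with TMM scaling (blue circles) and with TMM scaling and GC correction (orange diamonds), ordered by the uncorrected value. Grey bars join the values of a gene: they cross 0 for 16 genes, and Hnrnpa0, Hnrnpab and Srsf2 are moved further above 0.

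Many members are annotated with isoforms that counts per gene do not separate. Of the 34 members, 23 (67.6%) have a transcript annotated as a target of nonsense-mediated decay, against 27.5% of the 14191 tested protein-coding genes, and 26 have one with a retained intron. Decay targets make up 43 of the 321 transcripts annotated for the members. Genes matched in number of annotated transcripts or in level were not compared, so the part of these in the share of 67.6% was not tested. A change in the balance between productive and decay isoforms was not tested. Srsf10, Hnrnpa3 and Hnrnpa0 have no annotated decay transcript, while Tra2b and Hnrnpu have 3 each and Hnrnpd has 4.

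Exons shared with other genes touch 15 members, but for 10 of these less than 10% of the exon bases are shared with any 1 gene. Beside Srsf4, Hnrnpab shares 29.1% with Phykpl, whose log2 fold change was 0.14, and Srsf2 shares 15.6% with Mettl23, whose log2 fold change was 0.30, both on the opposite strand. Hnrnpm shares 14.7% with March2 on the same strand, which averaged 12.4 ± 4.99 CPM in Mark3-KO and 23.0 ± 5.69 CPM in WT (SD, n = 3 each). Hnrnpf shares 13.5% with 4933440N22Rik and 13.0% with Gm43863, each under 1 CPM on average in both groups. Of the members with copies other than Hnrnpa3, Hnrnpf and Hnrnpk, Hnrnpa1 had copies summing to 112.0, 97.3 and 118.3 CPM in Mark3-KO and 107.9, 90.6 and 117.6 CPM in WT, and its log2 fold change with them added was 0.15. Tra2b had copies of 8.78, 7.37 and 6.02 CPM in Mark3-KO and 17.7, 13.0 and 10.2 CPM in WT, and with them added the log2 fold change was 0.11. With all copies added to their members, 0 members passed the edgeR threshold (0.221% of all tested genes did).

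The start sites of 3 members are printed below: Srsf10 and Srsf4, with the highest and lowest fold changes among the SR and SR-related genes, and Hnrnpa0, which stood farthest from genes of like GC content. Each window runs from 250 bases before to 50 bases after the start of the gene in RefSeq (GRCm38.p6), at chr4:135855821-135856120 for Srsf10 (plus strand), chr13:58128507-58128806 for Hnrnpa0 (minus strand) and chr4:131873387-131873686 for Srsf4 (plus strand). GENCODE M21 starts Srsf10 at chr4:135855747, upstream of its RefSeq start. The whole Srsf10 window therefore lies inside the gene as annotated there. Capitals mark matches on either strand to the GC box, with the letters GGGCGG, or the CCAAT box, with its name as its letters. They also mark the ETS factor site, with the letters CCGGAAG, the TATA box as TATAAA, and the E box, with the letters CACGTG. No printed match overlaps another motif.
Srsf10: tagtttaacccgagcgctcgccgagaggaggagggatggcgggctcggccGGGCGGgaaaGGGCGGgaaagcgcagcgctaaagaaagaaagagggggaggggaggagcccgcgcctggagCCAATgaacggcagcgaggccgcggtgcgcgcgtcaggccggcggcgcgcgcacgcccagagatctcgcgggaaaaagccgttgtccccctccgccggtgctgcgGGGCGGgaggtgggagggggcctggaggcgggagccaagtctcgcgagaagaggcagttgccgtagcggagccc
Hnrnpa0: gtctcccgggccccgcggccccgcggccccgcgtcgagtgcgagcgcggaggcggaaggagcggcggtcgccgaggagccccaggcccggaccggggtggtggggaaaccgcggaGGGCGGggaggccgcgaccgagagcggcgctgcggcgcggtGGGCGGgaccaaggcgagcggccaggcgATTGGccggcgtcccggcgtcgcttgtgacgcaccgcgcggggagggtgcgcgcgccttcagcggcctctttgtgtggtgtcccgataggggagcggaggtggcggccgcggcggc
Srsf4: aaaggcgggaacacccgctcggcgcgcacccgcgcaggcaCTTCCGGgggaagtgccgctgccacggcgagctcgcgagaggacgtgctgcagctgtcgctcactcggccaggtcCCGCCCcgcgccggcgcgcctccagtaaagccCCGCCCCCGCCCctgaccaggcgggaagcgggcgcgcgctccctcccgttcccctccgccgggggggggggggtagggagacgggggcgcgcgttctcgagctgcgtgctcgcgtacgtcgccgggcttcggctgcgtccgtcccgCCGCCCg
All 3 windows are rich in GC, with 71.3% for Srsf10, 79.7% for Hnrnpa0 and 77.7% for Srsf4, and hold 38, 52 and 49 CpG in that order of genes. Srsf10 and Hnrnpa0 each hold GC boxes and a CCAAT match, and Srsf4 holds GC boxes and a match to the ETS site, in part side by side. Of the members, 32 had a RefSeq window. The GC box was in 78.1% of these and in 35.9% of all 27025 windows, the CCAAT box in 56.2% of members and 38% of all, the ETS site in 18.8% of members and 9.1% of all, and the E box in 12.5% of members and 7.2% of all. The TATA box was in 12.5% of members and 14.2% of all windows. The members' windows had a median GC content of 64.5%, against 52.7% over all windows. No windows matched in GC content were compared, so the part of GC content in these motif shares was not tested.

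Other splicing genes, in 7 lists, gave the surroundings of the set. Of their 119 tested genes, 0 passed the threshold in edgeR and in limma-voom, 40 were higher and 33 lower at an unadjusted p under 0.05 (20.8% and 24.8% of all tested genes were), and DESeq2 called 29 higher and 29 lower (15.5% and 23.1% of the genes it tested). The counts at an unadjusted p under 0.05 in each list below are to be read against the same 20.8% and 24.8%. Of 10 kinases that phosphorylate SR proteins and importins that carry them, 5 were higher and 2 lower at an unadjusted p under 0.05, against 20.8% and 24.8% of all tested genes. Prpf4b, the speckle kinase PRP4, had a fold change of 0.56 on the log2 scale (adjusted p = 0.0506) and Clk1, a kinase of the same domain, of 0.63 (adjusted p = 0.0515), while Clk2 had -0.54 (adjusted p = 0.0529) and Clk3 -0.58 (adjusted p = 0.0723). With GC correction all 4 came within 0.10 of 0.

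Among hnRNP proteins with other symbols, 2 of 9 were higher and 5 lower at an unadjusted p under 0.05, against 20.8% and 24.8% of all tested genes, at a median transcript GC content of 54.8%. Ptbp1 (hnRNP I), the repressor of neuronal exons, averaged 133.4 ± 25 CPM in Mark3-KO and 279.5 ± 87.2 CPM in WT (SD, n = 3 each), a fold change of -1.07 on the log2 scale (adjusted p = 0.0506) that was -0.27 with GC correction. Raly had -0.72, and 0.31 with GC correction. Syncrip (hnRNP Q) had 0.55 and Rbmx (hnRNP G) had 0.26. The median of this list was -0.72 and 0.03 with GC correction.

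Other RS-domain proteins, 22 tested, were higher for 8 and lower for 4 at an unadjusted p under 0.05, against 20.8% and 24.8% of all tested genes. Rbm39 had a log2 fold change of 0.61 and Luc7l2, a U1 snRNP partner, 0.67, while U2af2, the large subunit of the polypyrimidine tract factor, had -1.11 and Acin1 -0.67 (adjusted p = 0.0506 for each of the 4). Tissue-restricted and other regulators, 21 tested, were higher for 10 and lower for 1. Ptbp2, the neuronal counterpart of Ptbp1, had 44.3, 48.8 and 59.2 CPM in Mark3-KO and 26.7, 31.2 and 35.8 CPM in WT (log2 fold change 0.70, adjusted p = 0.0506). Tia1 had 0.46, Rbm10 -0.96 and Rbm4 -0.28. The core spliceosome, 35 tested, was higher for 6 and lower for 14 by the same measure. The Sm protein gene Snrpb had -1.56 and the helicase gene Dhx38 -1.35, while Snrpb2 had 0.58 and Dhx15 0.56 (adjusted p = 0.0506 for each). Exon junction and nonsense-mediated decay genes, 15 tested, were higher for 4 and lower for 7, with the decay helicase gene Upf1 at -1.47 and Smg5 at -0.59, and Upf2 at 0.45 and Smg1 at 0.43. With GC correction the medians of these 4 lists lay between -0.12 and -0.05. On that scale Rbm39 had 0.24, Luc7l2 0.16, U2af2 -0.28 and Acin1 -0.12. Ptbp2 came to 0.12, Tia1 to -0.03, Rbm10 to -0.07 and Rbm4 to -0.27. Snrpb came to -0.76, Dhx38 to -0.53, Snrpb2 to -0.01 and Dhx15 to 0.0. Upf1 came to -0.33, Smg5 to -0.05, Upf2 to 0.03 and Smg1 to 0.07.

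Nuclear speckle and paraspeckle components, 7 tested, were higher for 5 and lower for 0 at an unadjusted p under 0.05 (20.8% and 24.8% of all tested genes), at a median log2 fold change of 0.59 that was 0.15 with GC correction. Tardbp, the gene of TDP-43, had 150.5, 286.6 and 304.5 CPM in Mark3-KO and 108.1, 121.6 and 130.4 CPM in WT (log2 fold change 1.04, adjusted p = 0.0506, and 0.51 with GC correction). Matr3, the gene of matrin 3, had 0.59, and Nono, a core paraspeckle protein gene, had -0.07. The noncoding RNA Malat1, named here after its values were seen, is among the 5 genes counted as higher. Its levels were 116.4, 133.8 and 2277.4 CPM in Mark3-KO and 78.7, 68.6 and 102.9 CPM in WT. Neat1, the paraspeckle scaffold, also named after the fact, had 52.7, 51.4 and 298.0 CPM in Mark3-KO and 16.8, 51.7 and 47.4 CPM in WT. Both nuclear RNAs were thus far higher in Mark3-KO replicate 3 than in the other 5 libraries. Of the 34 members, 21 had their highest level in this library, which also lies at the end of the GC axis. Genes poor in GC also stood highest there: the median log2 level of the poorest 10%, relative to each gene's mean, was 0.54. The share of all tested genes with their highest level in this library was not counted. Without Mark3-KO replicate 3, 0 members passed the edgeR threshold and their median log2 fold change was 0.21.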

How the data were processed

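RNA of 6 libraries (3 Mark3-KO, 3 WT) was analysed from the deposited table, in which the authors give whole-number read counts for 51912 Ensembl IDs. The submitters' processing notes name GRCm38 as the build and HISAT2 2.0.5, StringTie, FastQC and DESeq2 as tools. The annotation release and the treatment of reads at several positions are not given in the sources used here. Libraries were made with TruSeq RNA v2, which does not mark strand, and Trizol RNA, per the labels' protocols. Totals ran from 56925883 to 71445243 counts.

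Symbols, coordinates and transcript GC content came from GENCODE M21 (193 IDs had no match) and promoter windows from RefSeq GRCm38.p6. Tests used edgeR 4.0.16 under R 4.3.3: filterByExpr (19017 genes), TMM scaling, the quasi-likelihood test of Mark3-KO over WT without a block, and Benjamini-Hochberg adjustment at 0.05. CPM use TMM-scaled library sizes, and a standard error is the fold change (log2) divided by the root of F. The script was tested on simulated data. The members and lists were chosen with earlier results of these data known. All members were named with a fold change. Values per library were given for the 8 highest and 8 lowest by fold change, the 4 with the highest mean CPM and Mark3, and for other genes where the text says so or to show a result, and in each list the 2 genes with the smallest p in each direction were named. Copies were found with BLAST+ 2.17.0 among transcripts. For the GC correction, a natural spline on transcript GC content (6 degrees of freedom) was fitted in each library and used as an offset. Other settings were limma-voom (limma 3.58.1), the Wald test of DESeq2 1.42.0, scaling by library size or by DESeq2 size factors, no filter, 1 CPM in 3 libraries, a threshold of 0.1, the replicate number as a block, the GC correction with and without that block, and leaving out libraries. Summing copies into members was added after seeing the data.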

Additional observations from a re-analysis of the deposited data

How the results depend on the processing

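Counts of genes called moved with many settings, and the GC correction changed the sign of the fold change for 16 members, some of them to values near 0. In edgeR, 6 members and 4707 of all tested genes had an adjusted p below 0.055. Beside 41 of all tested genes, 0 members and 0 related genes called, scaling by library size gave 4510 genes, 8 members higher and 0 lower, 22 related genes higher and 16 lower, and a member median of 0.36. The DESeq2 Wald test gave 6915 genes, 9 members higher and 3 lower, and 29 related genes each way, limma-voom gave 27 genes, and a filter of 1 CPM in 3 libraries gave 5266 genes, 10 members higher and 1 lower, and 30 related genes higher and 25 lower. A threshold of 0.1 gave 8317 genes, 16 members higher and 4 lower, and 39 related genes higher and 32 lower. The GC correction gave 77 genes and reversed the median to -0.07. Leaving out single libraries gave 0 to 6460 genes, 0 to 10 members higher and 0 to 3 lower, and 0 to 31 related genes higher and 0 to 30 lower. The high counts came without Mark3-KO replicate 1 or WT replicate 3, the libraries of each group nearest to the other group. Without Mark3-KO replicate 3 and WT replicate 1 together, 0 genes were called (3258 at an unadjusted p under 0.05).

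Whether replicate numbers pair the samples is not settled by these values. Same-numbered libraries correlated at 0.33, -0.03 and 0.29 in their deviations from group means. For Mark3-KO replicates 1 and 3 the same-numbered WT library correlated best, while Mark3-KO replicate 2 correlated best with WT replicate 3 (0.09). The replicate block gave 8487 genes, 17 members higher and 4 lower, and 41 related genes higher and 34 lower. Throughout this section the counts of all called genes take both directions together, so the members' directions cannot be read against them here. With the GC correction and the replicate block there were 1003 genes, 2 members higher (Hnrnpa0, Hnrnpab) and 3 lower (Hnrnph1, Hnrnpul1, Srsf5), 1 related gene higher and 10 lower, and a median of -0.07.

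By gene, the GC correction reversed Hnrnpa1 to -0.20, Hnrnpa2b1 to -0.16, Hnrnpc to -0.22, Hnrnpdl to -0.01, Hnrnph1 to -0.44, Hnrnph2 to -0.09, Hnrnpl to 0.03, Hnrnpm to -0.06, Hnrnpr to -0.19, Hnrnpu to -0.02, Srrm2 to 0.11, Srsf11 to -0.09, Srsf3 to -0.22, Srsf5 to -0.46, Srsf7 to -0.24 and Tra2b to -0.34. With the block as well these were the same but for Hnrnph2 (-0.10), Hnrnpr (-0.18) and Hnrnpu (-0.03). With the GC correction alone, Hnrnpdl (SE 0.06), Hnrnpu (SE 0.09), Hnrnpl (SE 0.07) and Hnrnpm (SE 0.08) lay nearer to 0 than their SE. For these genes the changed sign is not a difference in the other direction. Srsf5 was also reversed to -0.01 with no filter and -0.02 without Mark3-KO replicate 3 and WT replicate 1 together, and ran from -0.03 to 0.02 when single libraries were left out. The cause of these reversals beyond the correction itself was not tested. No other member changed sign under the alternatives run. Limits are the 3 libraries per group, the GC axis that runs with the groups, the virus that changed with the genotype, and reads shared among copies.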
